A study of Mus musculus with 6 samples.

Results

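The proteasome genes of mouse platelets are described here in carriers of a point mutation of Nxf1 and in their wild-type littermates. Members were all genes whose symbol begins with Psma, Psmb, Psmc, Psmd, Psme, Psmf or Psmg followed by a number, with symbols looked up in RefSeq's gene table for GRCm38.p6. The rule found 46 of the 9822 genes with counts. Of these, 45 encode subunits, alternative caps, an inhibitor or assembly factors, and Psme3ip1 encodes a protein that binds the Psme3 cap and is no subunit. The table names 5 further genes of this kind, Psme2, Psme2b, Psmb11, Psma8 and Psmc3ip, which were not analysed here.

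Platelets came from male mice of the BalB/c background. Mutants were Nxf1+/C587R heterozygotes, which keep a wild-type copy of Nxf1, the gene of the main nuclear export receptor for mRNA. The controls were wild type at Nxf1. As an inherited allele it is present throughout the animal and not in the platelet lineage alone. Suspensions of 1 genotype with more than 98% CD41+ events (CD41 is an integrin chain of platelets and megakaryocytes) were pooled, and every one of the 3 preparation days gave 1 mutant and 1 wild-type pool. PolyA RNA was sequenced from these 3 mutant and 3 wild-type pools. How many animals went into a pool is not stated in the labels, and p-values reflect only how much pools differ from each other.

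The proteasome is a barrel-shaped protease that breaks down proteins tagged with ubiquitin. Its core particle is built of outer alpha rings, which gate the barrel, and inner beta rings, of which the subunits Psmb5, Psmb6 and Psmb7 cut proteins. The cap has a base of ATPases (Psmc1 to Psmc6) that unfold substrates and a lid that removes ubiquitin. The inducible subunits Psmb8, Psmb9 and Psmb10 replace the catalytic ones in the immunoproteasome, a form known from lymphocytes and interferon-treated cells. Platelets have no nucleus and inherit most of their mRNA from megakaryocytes, and proteasome inhibitors used as drugs are known to lower platelet counts.

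The libraries held between 25189231 and 29421549 counts. Proteasome genes took 12542 to 15174 of these counts per library, and the smallest count of a member in any library was 10. Markers of platelets summed to 47910, 47511 and 43236 CPM (counts scaled to library size) in mutant pools on days 1, 2 and 3 and to 39105, 41164 and 33765 CPM in wild-type pools, with 5 of 11 markers higher and 1 lower by the gene test used below. Markers of other blood cells were also present. The B cell sum was 303, 312 and 373 CPM in mutant pools and 396, 387 and 516 CPM in wild-type pools, with all 12 markers counted and 6 lower in mutant pools. For T cells, 10 of 12 markers had a row, 0 passed the edgeR test (3 at an unadjusted p under 0.05, and 1 in limma-voom), and the sum ranged over 27.3 to 33.4 CPM in mutant and 33.7 to 40.7 CPM in wild-type pools. For myeloid cells, 7 of 12 had a row (1 higher, 1 lower), with sums of 1785 to 2097 CPM in mutant and 1173 to 1612 CPM in wild-type pools. A single gene with a mean of 1636 CPM made up most of this sum, where the median marker had 4.04 CPM. Of the 7 log2 fold changes, 3 were positive and 4 negative, with a median of -0.03. The part of these cells in the results on proteasome genes was not tested, and fewer cells of a type and less RNA per cell cannot be told apart in such pools.

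Proteasome mRNAs were present at moderate levels, and those of 1 complex differed widely. Per kilobase of the authors' gene length, the median proteasome gene had 4.49 CPM, against 1.42 CPM over all genes. Psmd4, a ubiquitin receptor of the cap, had the highest mean level over the 6 libraries, 41.1 CPM per kb. Psmb5, which carries the chymotrypsin-like activity, followed with 32.9, and next came the beta subunit gene Psmb1 with 26.5 and Psme1, the gene of an alternative cap, with 24.5 CPM per kb. Psmg3, an assembly chaperone, was lowest with 0.578 CPM per kb, 71.0-fold below Psmd4. Inside the core particle the highest and lowest genes, Psmb5 and Psma5, differed 20.9-fold, and inside the cap Psmd4 and Psmd12 differed 34.0-fold, although each of these subunits is built into the complex in equal numbers. Each ring and module held such a range. It was 8.95-fold in the alpha ring, 16.8-fold in the beta ring, 15.2-fold among the ATPases and 19.7-fold in the lid. Levels per kb also depend on the transcripts that the gene length stands for, which the deposited tables do not give.

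**Figure D1:**
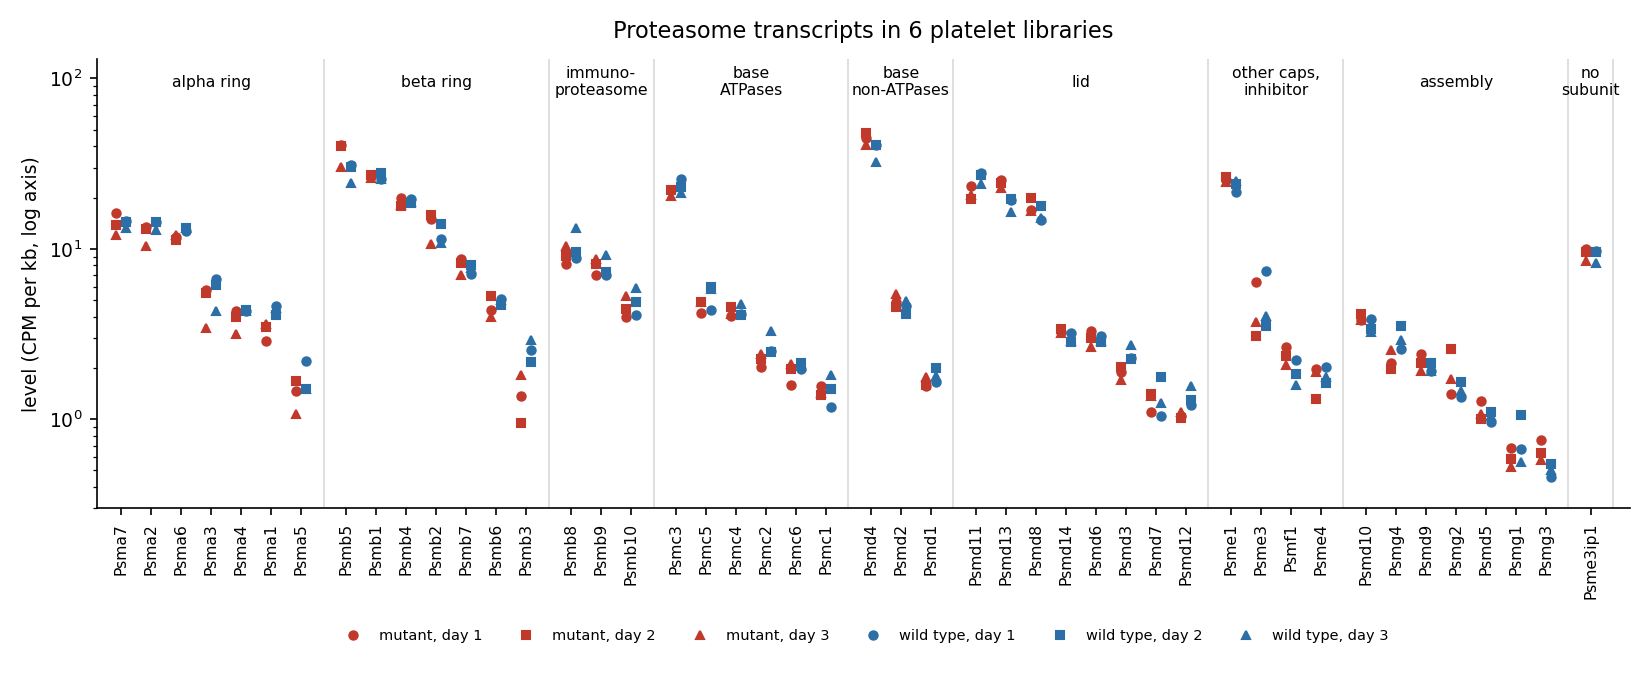
Levels of the 46 proteasome genes in CPM per kb on a log axis, grouped by role, with 1 point per library, mutant points left of wild-type points and the shape giving the preparation day. Psmd4 (mean 41.1 CPM per kb) stands at the top and Psmg3 (0.578) at the bottom.

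The mutant and wild-type ranges of the summed proteasome mRNA overlapped. The sum came to 542, 528 and 492 CPM in mutant pools on days 1 to 3 and to 526, 521 and 490 CPM in wild-type pools, lowest on day 3 in both genotypes. As a share of all deposited counts, before any scaling, the genes took 0.0506% ± 0.0012 in mutant and 0.0528% ± 0.0046 in wild-type pools (SD, n = 3 each). By day the shares were 0.0494%, 0.0508% and 0.0517% in mutant and 0.0505%, 0.0498% and 0.0581% in wild-type pools. Before scaling, day 3 was thus the highest in both genotypes, so the order of the days depended on the scaling.

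Few single genes passed the test. With edgeR's quasi-likelihood test, adjusted by Benjamini-Hochberg over all 9822 genes at 0.05, 1 proteasome gene was higher in mutant platelets and 1 was lower, where 12.9% of all genes were higher and 9.16% lower. In either direction that is 2 of 46 members, against 22.1% of all genes. Log2 fold changes of mutant over wild type ran between -0.87 and 0.39, with a median of -0.06 against -0.04 for all genes. The median size without sign was 0.17, against 0.27 for all genes. At an unadjusted p under 0.05, edgeR passed 6 members, Psma1, Psmb3, Psmb5, Psmd3, Psmd11 and Psmd13, beside 32.8% of all genes. DESeq2 and limma-voom with genotype alone each called the same 2 members as edgeR, Psmb3 and Psmd13, beside 20.7% and 22.1% of genes. No member passed 2-fold, which 4% of all genes did. Members with a mean of at least 10 CPM gave a different count when tested among such genes alone, with scaling from these genes: 1 was higher and 4 were lower, Psma2, Psma6, Psmc3 and Psmd11, where 49% of such genes were called.

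Because 1 pool of each genotype was made per day, the same comparison was made within days, with the day as a block. It called 4 members higher and 5 lower, where 22% of all genes were higher and 18% lower, and in either direction 9 of 46 members, where 40% of all genes were called. The 4 higher were Psmb5, Psmd4, Psmd13 and Psmf1, and the 5 lower were Psma1, Psmb3, Psmc2, Psmd3 and Psmd11. DESeq2 with the same block, on the 44 members it tested, called Psmb5, Psmd4, Psmd11 and Psmd13, where it called 28.1% of genes. In 11 members the mutant and wild-type values did not overlap, beside 36.3% of all genes. Of these, 3 had mutant higher and 8 had mutant lower, beside 20.4% and 15.9% of all genes. In 27 members the 3 days had 1 direction, beside 60.8% of all genes.

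**Figure D2:**
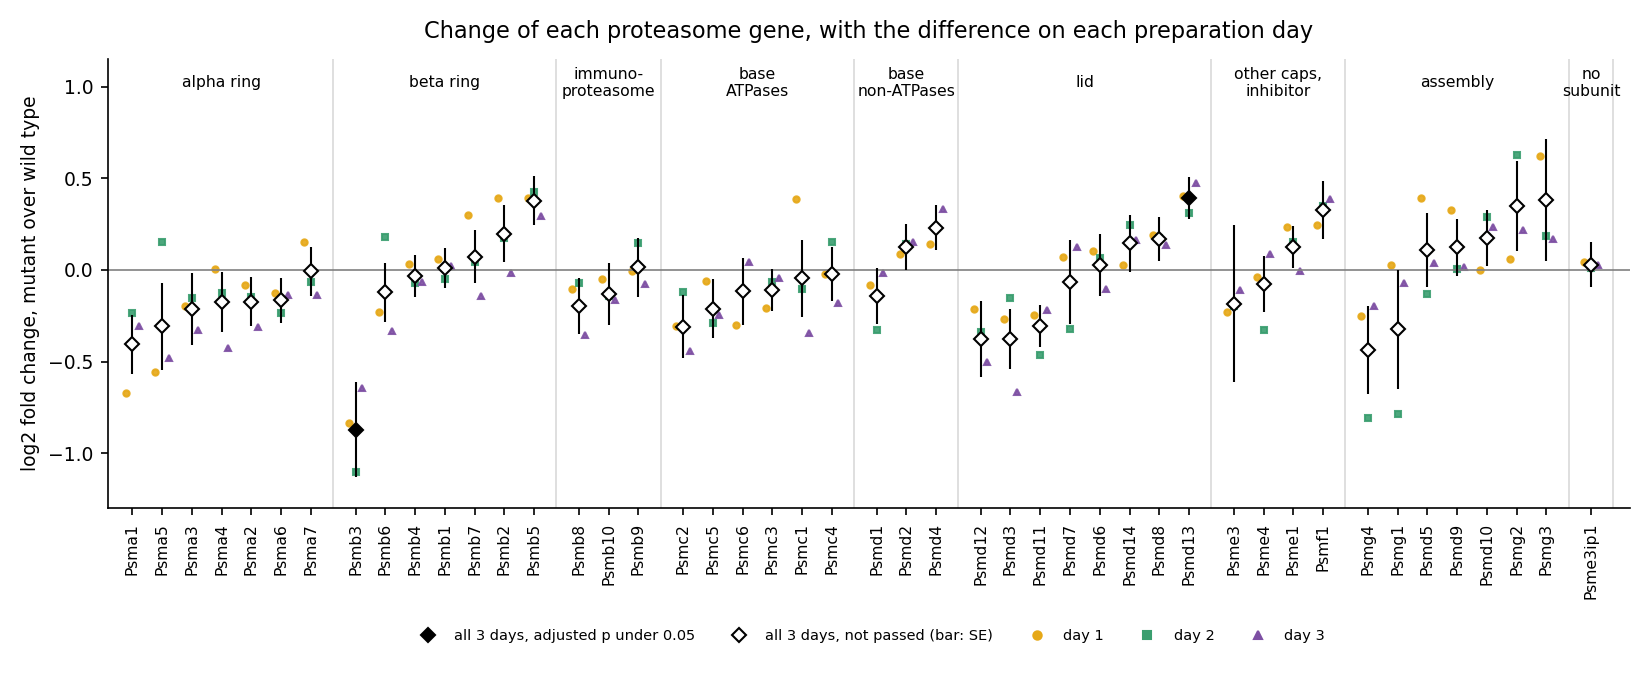
Log2 fold change, mutant over wild type, of each proteasome gene with its SE (bars), by role, from the test with genotype as the only term (diamonds, filled where called), and the difference between the pools of each day (coloured points). Psmd13 at 0.39 and Psmb3 at -0.87 are the filled diamonds, and their 3 days lie on 1 side of 0.

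In the alpha ring, which forms the gate of the barrel, 0 of 7 genes passed edgeR, DESeq2 or limma-voom with genotype alone over all genes, and 1 of 7, Psma1, passed an unadjusted p of 0.05. Across all genes, edgeR called 22.1%, and 32.8% passed the unadjusted p. When genes under a mean of 10 CPM were left out and the scaling was refitted, Psma2 and Psma6 were called lower (edgeR adjusted p = 0.0269 and 0.0313). In that setting 49% of genes were called, and the median log2 fold change of the 18 members tested was -0.17. All 7 fitted log2 fold changes were negative, between -0.41 and -0.01 with a median of -0.17. The other scalings gave the same signs. Each kept or lowered the median of all genes (between -0.04 and -0.13), so none of them tests a negative sign. Within days, 2 of the 7 differences were positive on day 1, 1 on day 2 and 0 on day 3, and the median was -0.32 without the mutant pool of day 1 and -0.07 without that of day 3. Over all genes, 5337 of 9822 fold changes were negative. Psma1 had 3.62, 4.37 and 4.52 CPM in mutant pools on days 1, 2 and 3 and 5.80, 5.15 and 5.62 CPM in wild-type pools. Every mutant value lay below every wild-type value, with a log2 fold change of -0.41 ± 0.16 (SE), an edgeR adjusted p of 0.0776, and 0.00454 with the day block. Psma7, the most abundant alpha gene per kb, had 14.3, 12.1 and 10.6 CPM in mutant pools and 12.8, 12.7 and 11.7 CPM in wild-type pools, groups that overlap. Psma5, the least abundant, had 1.79, 2.04 and 1.30 CPM in mutant pools and 2.67, 1.83 and 1.84 CPM in wild-type pools, which overlap too. A pseudogene is named after Psma5, so reads of the copies may be split. Psma3 shares its locus with another counted gene, and without strand their reads cannot be told apart.

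The beta ring held the gene that fell most. Psmb3, a structural beta subunit with no catalytic site (chr11:97703434-97713500, GRCm38.p6), had 1.01, 0.694 and 1.34 CPM in mutant pools and 1.86, 1.58 and 2.13 CPM in wild-type pools, from 27, 17 and 36 counts in mutant and 48, 38 and 66 counts in wild-type libraries. All 3 mutant values were below all wild-type values. The log2 fold change was -0.87 ± 0.26 with an edgeR adjusted p of 0.0195, and it was -0.84, -1.10 and -0.65 on days 1, 2 and 3. It was also the least abundant gene of its ring. The call depended on single pools: the adjusted p was 0.0997 without the mutant pool of day 2, 0.0686 without the wild-type pool of day 3, 0.0624 without day 1 and 0.122 without day 2. It was 0.0654 with library size alone as the scaling and 0.0526 in DESeq2 with the day block, and over all alternatives it ranged from 0.00034 to 0.122. 

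The catalytic gene Psmb5 (chr14:54614120-54617995) stood on the other side. It had 35.7, 35.1 and 26.2 CPM in mutant pools and 27.1, 26.2 and 21.3 CPM in wild-type pools. On each day the mutant pool was higher, but the mutant pool of day 3 lay within the wild-type range. The log2 fold change was 0.38 ± 0.14, with an edgeR adjusted p of 0.0511 for genotype alone and of 3.95e-06 with the day block. It passed the test without day 3 (adjusted p = 0.00328) and without the mutant pool of day 3 (0.00507), and over all alternatives its adjusted p ranged from 3.95e-06 to 0.348. The other catalytic genes did not pass: Psmb6, of the caspase-like site, had 4.51, 5.47 and 4.12 CPM in mutant and 5.29, 4.82 and 5.20 CPM in wild-type pools. Psmb7, of the trypsin-like site, had 8.50, 8.05 and 6.79 CPM in mutant and 6.88, 7.82 and 7.49 CPM in wild-type pools. Pseudogenes are named after Psmb5, Psmb6 and Psmb7, so their counts carry that uncertainty. The remaining beta genes Psmb1, Psmb2 and Psmb4 had log2 fold changes of 0.01 ± 0.11, 0.20 ± 0.16 and -0.03 ± 0.12, and none passed.

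The inducible subunits of the immunoproteasome were all counted, and 0 of 3 passed edgeR with or without the day block, DESeq2 or limma-voom, or an unadjusted p of 0.05. Of all genes, edgeR called 22.1%, or 40% with the block, and 32.8% passed the unadjusted p. With 3 genes, a count of 0 does not set the group apart from these shares. Psmb8, the counterpart of Psmb5, had 10.03, 11.1 and 12.6 CPM in mutant pools and 10.8, 11.7 and 16.2 CPM in wild-type pools. Psmb9, the counterpart of Psmb6, had 5.63, 6.53 and 7.01 CPM in mutant and 5.64, 5.90 and 7.40 CPM in wild-type pools. Psmb10, the counterpart of Psmb7, had 5.03, 5.60 and 6.68 CPM in mutant and 5.22, 6.19 and 7.49 CPM in wild-type pools. In both genotypes these 3 genes were lowest on day 1 and highest on day 3, and the B cell sum was also highest on day 3 in both. The log2 fold changes were -0.20 ± 0.15, 0.01 ± 0.16 and -0.13 ± 0.17.

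Set against its constitutive partner per kb, Psmb8 was lower in mutant platelets on each day. The ratio of Psmb8 to Psmb5 was 0.200, 0.225 and 0.344 in mutant pools and 0.283, 0.318 and 0.540 in wild-type pools, and the groups overlapped across days. Of this pair, Psmb5 had the larger log2 fold change, 0.38 ± 0.14 against -0.20 ± 0.15 for Psmb8. That of Psmb8 was 0.004 without the wild-type pool of day 3. A lower ratio is therefore not by itself a lower level of Psmb8. The inducible genes made up 26.1%, 28.6% and 37.2% of the catalytic level in mutant pools and 31.5%, 33.7% and 43.2% in wild-type pools, again lower in the mutant on each day and overlapping across days. Psmb9 to Psmb6 gave 1.60, 1.53 and 2.19 in mutant and 1.37, 1.57 and 1.83 in wild-type pools, with no fixed direction. Psmb10 to Psmb7 gave 0.452, 0.531 and 0.750 in mutant and 0.579, 0.605 and 0.763 in wild-type pools. B cell markers, whose sum was also lower in the mutant pool on each day, are given above, and their part in these ratios was not tested.

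**Figure D3:**
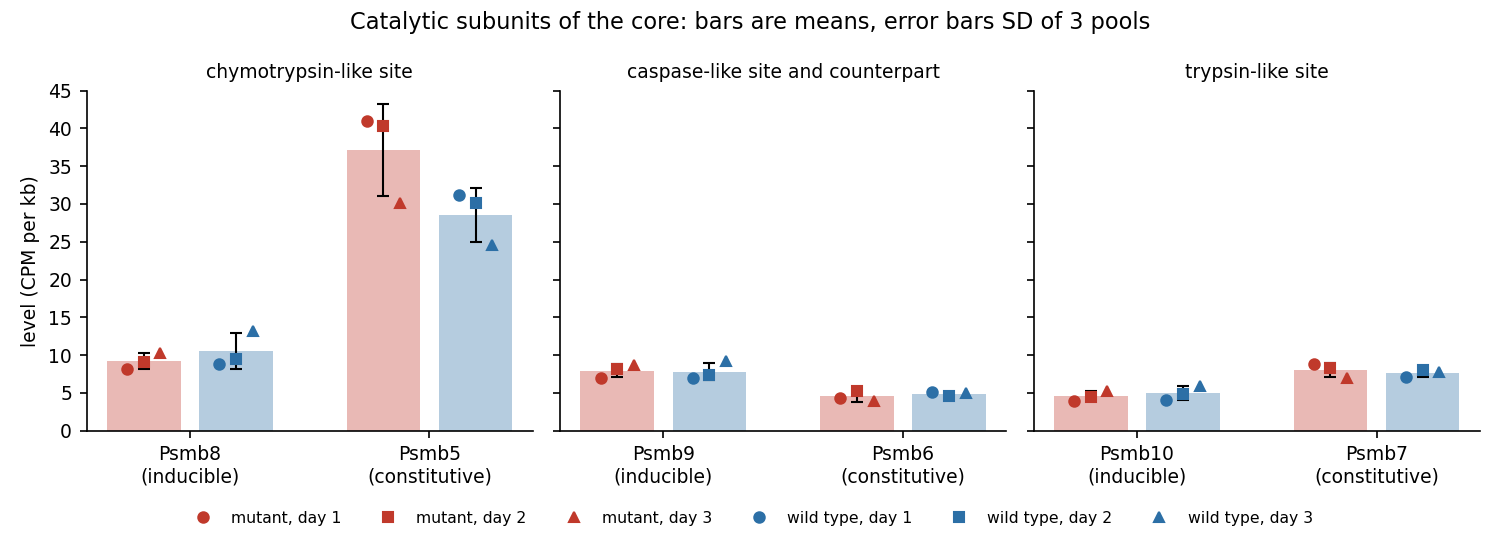
Level in CPM per kb of the inducible genes Psmb8, Psmb9 and Psmb10 beside their constitutive counterparts Psmb5, Psmb6 and Psmb7, with 1 point per pool, bars for the mean and SD of 3 pools, and mutant left of wild type. Psmb5 lies above Psmb8 in every pool, Psmb9 lies above Psmb6 in every pool, and Psmb10 lies below Psmb7 in every pool.

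The stretches of 250 bases before the starts of 4 genes are shown, for the catalytic pair Psmb5 and Psmb8 and for the genes called with genotype alone, Psmb3 and Psmd13. Letters come from RefSeq's promoter table for GRCm38.p6, read 5′ to 3′ on the gene's strand. Capitals mark matches to TGACNNNGC, the core of the antioxidant response element, at which NRF1 and NRF2 are known to bind, or to TTCNNNGAA, the gamma-activated site of STAT proteins. Both strands were searched, and the motifs share no letters in these stretches.
Psmb5, minus strand, chr14:54617996-54618245: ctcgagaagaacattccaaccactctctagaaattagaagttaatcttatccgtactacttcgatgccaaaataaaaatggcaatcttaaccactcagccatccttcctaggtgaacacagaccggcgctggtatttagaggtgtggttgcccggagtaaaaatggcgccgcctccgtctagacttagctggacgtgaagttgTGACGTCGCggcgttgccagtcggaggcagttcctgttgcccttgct
Psmb8, plus strand, chr17:34197945-34198194: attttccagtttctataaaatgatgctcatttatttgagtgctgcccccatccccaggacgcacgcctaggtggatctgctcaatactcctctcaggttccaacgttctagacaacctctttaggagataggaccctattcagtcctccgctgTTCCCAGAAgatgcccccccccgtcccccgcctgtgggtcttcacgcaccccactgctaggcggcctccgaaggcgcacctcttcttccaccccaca
Psmb3, plus strand, chr11:97703184-97703433: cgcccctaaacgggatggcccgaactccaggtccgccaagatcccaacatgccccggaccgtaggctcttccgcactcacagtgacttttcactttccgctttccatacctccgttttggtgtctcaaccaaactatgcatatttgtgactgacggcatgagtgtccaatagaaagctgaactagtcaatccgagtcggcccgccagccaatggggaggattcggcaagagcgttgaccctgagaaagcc
Psmd13, plus strand, chr7:140882144-140882393: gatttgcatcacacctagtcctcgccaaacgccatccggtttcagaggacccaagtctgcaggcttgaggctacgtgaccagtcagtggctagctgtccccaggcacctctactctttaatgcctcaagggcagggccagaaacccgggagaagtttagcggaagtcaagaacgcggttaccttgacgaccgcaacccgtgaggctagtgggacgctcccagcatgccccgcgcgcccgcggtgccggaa

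Psmb5 held 1 match to the first motif and Psmb8 held 1 match to the second, and Psmb3 and Psmd13 held neither. Of the members with such a stretch, 5 of 39 genes (12.8%) held the first motif, beside 14.3% of 7606 genes, and 2 of 39 (5.13%) held the second, beside 7.03% of all genes. Neither share of the members lay above that of all genes.

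The base of the cap unfolds substrates with 6 ATPases, and 0 of 6 passed with genotype alone over all genes in edgeR, at an unadjusted p of 0.05 or in the other tools. EdgeR called 22.1% of all genes, and 32.8% passed the unadjusted p. Without genes under that mean of 10 CPM and with the scaling refitted, Psmc3 was called lower (edgeR adjusted p = 0.0116), beside 49% of genes called in either direction. The 6 fold changes of the ATPase genes were all negative, between -0.31 and -0.02 with a median of -0.11. The other scalings gave the same signs but, as for the alpha ring, do not test a negative sign. Within days, 1 of the 6 differences was positive on day 1, 1 on day 2 and 1 on day 3. Summed over the 6 genes, mutant pools had 56.0, 58.0 and 55.6 CPM and wild-type pools had 63.0, 61.2 and 60.6 CPM, which do not overlap. Psmc3, with a mean of 36.7 CPM, made up most of this sum. Of the 6 genes only Psmc2 had groups apart, beside 36.3% of all genes, 15.9% with mutant lower. Psmc2 had 3.62, 4.04 and 4.30 CPM in mutant pools and 4.48, 4.41 and 5.88 CPM in wild-type pools. Its groups did not overlap, with a log2 fold change of -0.31 ± 0.17, an edgeR adjusted p of 0.223 and 0.0484 with the day block. Psmc3, the most abundant ATPase gene per kb, had 36.4, 36.1 and 33.6 CPM in mutant and 42.1, 37.7 and 34.6 CPM in wild-type pools, lower in the mutant on each day with overlapping groups. Psmc1, the least abundant, had 2.35, 2.08 and 2.15 CPM in mutant and 1.78, 2.24 and 2.75 CPM in wild-type pools.

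The sum of the 3 base subunits without ATPase activity did not overlap either, with mutant higher: 76.2, 78.6 and 73.2 CPM in mutant pools and 70.4, 69.9 and 61.1 CPM in wild-type pools. As a share of all counts, before any scaling, the groups did overlap. These shares were 0.00694%, 0.00755% and 0.00769% in mutant and 0.00675%, 0.00668% and 0.00724% in wild-type pools. Psmd4 made up most of the sum. It had 56.1, 59.5 and 50.7 CPM in mutant pools and 50.9, 50.8 and 40.2 CPM in wild-type pools, so the mutant was higher on each day and the lowest mutant value lay just within the wild-type range. The log2 fold change was 0.23 ± 0.12, with an edgeR adjusted p of 0.205 and of 0.00325 with the day block. Of the scaffold genes, which hold the ubiquitin receptors, Psmd2 had a log2 fold change of 0.13 ± 0.13. Psmd1 had 5.11, 5.15 and 5.79 CPM in mutant and 5.41, 6.49 and 5.85 CPM in wild-type pools, a log2 fold change of -0.14 ± 0.15.

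The lid, which takes ubiquitin off substrates, held the gene that rose. Psmd13, a structural lid subunit (chr7:140882394-140898642), was higher: 39.8, 38.0 and 35.7 CPM in mutant pools against 30.1, 30.7 and 25.7 CPM in wild-type pools, with no overlap. The log2 fold change was 0.39 ± 0.12, with an edgeR adjusted p of 0.0182 and of 4.64e-07 with the day block. The call with genotype alone was lost without the mutant pool of day 1 (0.181) or of day 2 (0.144), without the wild-type pool of day 1 (0.0682) or of day 2 (0.0567), and without day 1 (0.207) or day 2 (0.190). 

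Psmd11, the lid subunit that clamps onto the core particle, lay on the opposite side. It had 40.7, 34.2 and 36.2 CPM in mutant pools and 48.3, 47.1 and 42.1 CPM in wild-type pools, again with no overlap. The log2 fold change was -0.31 ± 0.12, with an edgeR adjusted p of 0.0664 and of 9.75e-05 with the day block. It also passed under the scalings by upper quartile (0.0164), by library size alone (0.0120) and without the 10 most abundant genes (0.0436), and without day 3 (0.0198) or its wild-type pool (0.0183). The highest adjusted p of any alternative was 0.412. Psmd3 had 4.06, 4.33 and 3.67 CPM in mutant and 4.91, 4.82 and 5.88 CPM in wild-type pools, a log2 fold change of -0.38 ± 0.16 with an edgeR adjusted p of 0.110 and of 0.0106 with the block. Psmd12, the least abundant lid gene per kb, had 1.79, 1.76 and 1.89 CPM in mutant and 2.09, 2.24 and 2.71 CPM in wild-type pools, with groups apart and no call in either fit. Psmd14, the deubiquitinating enzyme of the lid, had a log2 fold change of 0.15 ± 0.15, and its partner Psmd7 had one of -0.06 ± 0.23. In all, 5 of the 8 lid genes had groups that did not overlap, 2 with mutant higher and 3 with mutant lower, beside 36.3% of all genes, 20.4% with mutant higher and 15.9% with mutant lower.

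Of the alternative caps and the inhibitor, 0 of 4 passed with genotype alone in edgeR, at an unadjusted p of 0.05 or in the other tools. Over all genes, edgeR called 22.1%, and 32.8% passed the unadjusted p. Psme1, a subunit of the interferon-inducible cap that opens the core without ATP, had 24.8, 25.9 and 24.2 CPM in mutant and 21.1, 23.3 and 24.3 CPM in wild-type pools, a log2 fold change of 0.13 ± 0.11. Psmf1, an inhibitor of the core particle in vitro, had 9.36, 8.37 and 7.38 CPM in mutant and 7.88, 6.57 and 5.62 CPM in wild-type pools. The mutant was higher on each day with overlap across days, and the log2 fold change of 0.33 ± 0.16 had an edgeR adjusted p of 0.160 and of 0.00742 with the block. Psme4, the gene of a large nuclear cap, overlaps another counted gene. It had 12.7, 8.41 and 12.2 CPM in mutant and 13.0, 10.6 and 11.5 CPM in wild-type pools.

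Assembly factors had the lowest levels, and 0 of 7 passed in either edgeR fit, in DESeq2 or limma-voom, or at an unadjusted p of 0.05. Among all genes, edgeR called 22.1%, or 40% with the block, and 32.8% passed the unadjusted p. Psmd10, a chaperone of the base and the most abundant of them per kb, had 5.59, 6.004 and 5.56 CPM in mutant and 5.60, 4.91 and 4.72 CPM in wild-type pools, but it overlaps another counted gene. Psmg3, a chaperone of the alpha ring, had 0.634, 0.531 and 0.482 CPM in mutant and 0.386, 0.457 and 0.420 CPM in wild-type pools, with mutant above wild type throughout at these low levels. Psmg4, which acts with Psmg3, had a fold change of the other sign, -0.44 ± 0.24 against 0.38 ± 0.34 for Psmg3 on the log2 scale. For Psmg4, mutant lay below wild type throughout. Groups of 2 of the 7 genes were thus apart, 1 in each direction, beside 36.3% of all genes.

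Several members differed between preparation days. With genotype held fixed, edgeR's test of the day called 10 of 46 members, where it called 24.5% of all genes. DESeq2 called 4 of the 34 members it tested, where it called 30% of genes: Psme3, Psma3, Psmb5 and Psmd4. Psme3, the gene of a nuclear cap that works without ubiquitin, had 16.7, 8.09 and 9.79 CPM in mutant pools on days 1, 2 and 3 and 19.5, 9.27 and 10.6 CPM in wild-type pools. Both pools of day 1 were far above the other 4, with an edgeR adjusted p of 1.14e-21 for the day. Markers of red cells, of which 9 of 11 had a row, moved with it: their sum was 32116, 4432 and 4959 CPM in mutant and 36116, 4617 and 4660 CPM in wild-type pools, and their part in the level of Psme3 was not tested. Psma3 had 8.28, 7.88 and 4.90 CPM in mutant and 9.51, 8.77 and 6.17 CPM in wild-type pools, lowest on day 3 in both genotypes (edgeR adjusted p = 8.17e-06 for the day). Psmb5 was lowest on day 3 in both genotypes too (0.000259), and Psmb8 was highest on day 3 in both (0.000608).

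**Figure D4:**
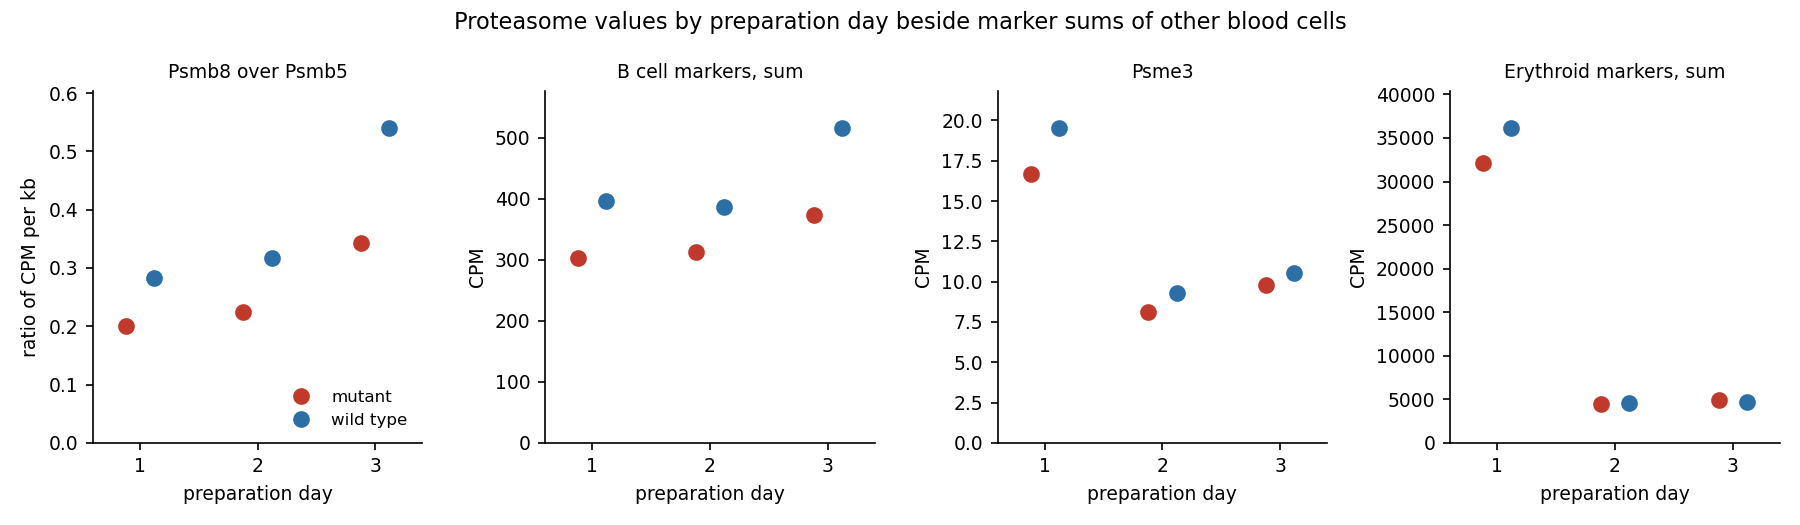
The ratio of Psmb8 to Psmb5 (per kb), the B cell marker sum (CPM), Psme3 (CPM) and the red cell marker sum (CPM) on each of the 3 preparation days, with the mutant pool left of the wild-type pool of that day. The first 2 measures are highest on day 3 and lower in the mutant pool on each day, and Psme3 and the red cell sum are highest on day 1 in both genotypes.

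Around the proteasome, 22 genes of receptors, shuttle factors, deubiquitinating enzymes and regulators gave 2 higher and 2 lower in edgeR with genotype alone, where 12.9% of all genes were higher and 9.16% lower, and 4 and 4 with the day block, where 22% and 18% were. The higher calls were 0 with library size alone as the scaling. The median log2 fold change was -0.03 beside -0.04 for all genes. Nfe2l1, which encodes NRF1, a transcription factor known to raise proteasome genes when the protease is inhibited, had 20.5, 20.7 and 20.1 CPM in mutant and 17.97, 15.1 and 14.8 CPM in wild-type pools. Its log2 fold change was 0.36 ± 0.12 with an edgeR adjusted p of 0.0373, which was 0.0599 in DESeq2, and it was not called with library size alone. Nploc4, a partner of the unfoldase VCP, rose by 0.47 ± 0.11 on the log2 scale. Ubqln2, which shuttles ubiquitinated proteins to the proteasome, had 29.5, 29.7 and 26.4 CPM in mutant and 44.6, 45.3 and 38.9 CPM in wild-type pools, a log2 fold change of -0.59 ± 0.12 with an edgeR adjusted p of 0.000868. Zfand5, a proteasome activator, also fell (-0.52 ± 0.17, 0.0319).

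Ubiquitin and its activating and conjugating enzymes gave 6 higher and 1 lower of 30, and 9 and 2 with the day block, beside the same shares of all genes, with a median of 0.10. When genes under a mean of 10 CPM were left out and the scaling was refitted, the balance turned to 3 higher and 5 lower. Of all 3017 genes in that setting, 723 were higher and 755 lower. Ubb, which encodes polyubiquitin, had 1525, 1480 and 1214 CPM in mutant and 920, 842 and 664 CPM in wild-type pools, well apart, with a log2 fold change of 0.80 ± 0.14 and an edgeR adjusted p of 0.000262. The conjugating enzyme genes Ube2q2 and Ube2j1 rose by 0.65 ± 0.16 and 0.44 ± 0.11 on the log2 scale. Rps27a, which encodes ubiquitin fused to a ribosomal protein, fell to 2.39, 2.78 and 2.37 CPM in mutant pools, against 3.401, 5.70 and 4.88 CPM in wild-type pools, though copies of this gene in the genome make its counts uncertain.

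The COP9 signalosome, a complex built like the lid, had 0 of its 9 genes called by edgeR, DESeq2 or limma-voom with genotype alone over all genes, with a median of 0.02. These tools called 22.1%, 20.7% and 22.1% of the genes they tested. With the day block edgeR called 2 higher, where 22% of all genes were higher. Without genes under a mean of 10 CPM it called 1 lower, where 755 of 3017 genes were lower. Only Cops8 passed an unadjusted p of 0.05 in edgeR, with a log2 fold change of 0.36 ± 0.13 and an edgeR adjusted p of 0.0658. In the class I pathway, which presents peptides made by the proteasome, 2 of 14 genes were higher and 0 lower, beside 12.9% and 9.16% of all genes, a count near the background. With the day block 6 were higher and 1 lower, beside 22% and 18%, and the median was 0.16. B2m, the light chain of class I molecules, had 7837, 8848 and 6001 CPM in mutant and 5322, 5601 and 4320 CPM in wild-type pools, a log2 fold change of 0.57 ± 0.14 with an edgeR adjusted p of 0.00618. Tapbp, which loads peptides, had 35.4, 34.1 and 34.3 CPM in mutant and 28.0, 25.5 and 27.2 CPM in wild-type pools (0.36 ± 0.11, 0.0208), but it overlaps another counted gene. Tap1, next to Psmb9 and Psmb8 on chromosome 17, had a log2 fold change of -0.01 ± 0.24.

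**Figure D5:**
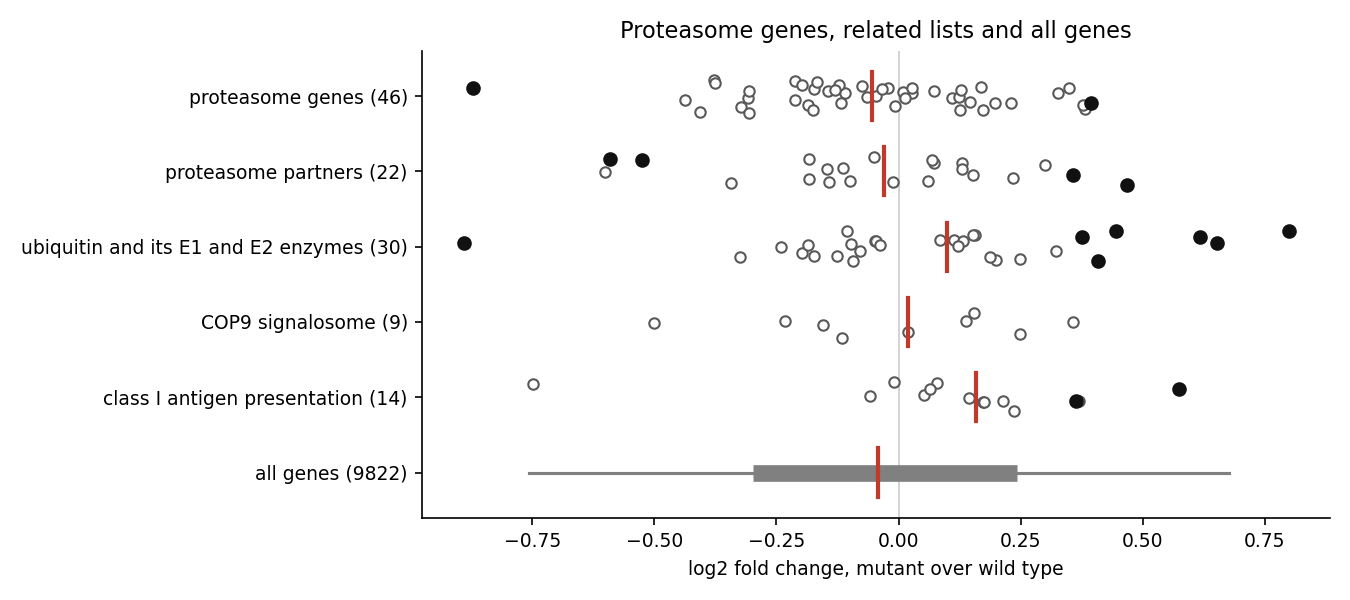
Log2 fold changes, mutant over wild type, of the genes of each list, 1 point per gene (filled where called, red bar for the median), beside the proteasome genes, with the middle 50% and middle 90% of all 9822 genes as bars at the foot. Medians run from -0.06 for the proteasome genes to 0.16 for class I antigen presentation, and Ubb at 0.80 is the highest point of the ubiquitin list.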

How the data were processed

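Platelet polyA RNA from 3 Nxf1+/C587R and 3 wild-type pools was sequenced together. Each deposited file holds raw counts and a length for every gene, per the file headers. The submitters' processing notes name CASAVA 1.8.2 and mm10, with Subread's featureCounts. Settings and the handling of multi-mapping reads are not stated there. TruSeq RNA libraries of this kind carry no strand information. All 9822 genes in the tables were above 0.5 CPM in at least 3 libraries. Genes were named from Entrez identifiers through the RefSeq table of GRCm38.p6, which matched 9636 of them.

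Counts were tested with edgeR 4.0.16 (R 4.3.3): TMM scaling, filterByExpr (0 genes removed), a quasi-likelihood fit with genotype alone, two-sided, with Benjamini-Hochberg adjustment over all genes at 0.05. SE is the size of the log2 fold change over the square root of F. CPM uses TMM-scaled totals. The biological coefficient of variation was 14.2%, and 5.73% with the day as a block. The labels give 1 mutant and 1 wild-type pool per preparation batch, read here as the preparation day. Deviations of same-day pools correlated across genes at 0.431, 0.271 and 0.482 on days 1, 2 and 3, and pools of different days at -0.0104 at most. Deviations were taken from the mean of each genotype, so they sum to 0 over the days. Positive same-day values therefore push those between days below 0, which are no separate result. Libraries of a group were distinct, with a mean chi-square per gene of at least 14.6. Calls of members by genotype and fold changes of named members were also computed with DESeq2 1.42.0 and with voom (limma 3.58.1). The same was done under other scalings and low-count filters, with the day block, and without each pool or day. Calls in the gene lists were not recomputed without pools or days. Medians of role groups were recomputed only under other scalings and without pools or days. Levels, sums and ratios are given per library.

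The members and gene lists were chosen with earlier results of these data known. Values in every library are given for members called with or without the day block, catalytic pairs, Psme1, and the most and least abundant gene of each role per kb. From each list, up to 4 called genes with the smallest p are named. Other members are given by ranges and counts, except those added for their role or for the test of the day (Psma3, Psmb1, Psmb2, Psmb4, Psmd2, Psmd7, Psmd14, Psme3 and Psmg4), and Tap1 was added for its place beside Psmb8 and Psmb9.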

Additional observations from a re-analysis of the deposited data

How the results depend on the processing

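Counts of called members moved with the setting. With the replicate block (preparation day), edgeR called 4 higher and 5 lower, beside 40% of all genes in either direction. DESeq2 with that block called 3 higher and 1 lower, beside 28.1% of genes. Called members lower were 2 with upper-quartile factors, 2 without the 10 most abundant genes and 4 after a filter on mean CPM (10 or more). In these settings 22.4%, 21.1% and 49% of genes were called in either direction. Leaving out a pool or a day gave 0 to 2 higher and 0 to 2 lower, beside 10.2% to 24.4% of genes in either direction. Day-effect calls were 6 after the filter on mean CPM and 4 with DESeq2, which called 30% of the genes it tested. For partners, higher calls were 1 with DESeq2's size factors, upper-quartile factors, DESeq2 and without the 10 most abundant genes, and 1 against 4 lower after that filter. The first 4 settings called 20.7% to 22.4% of genes in either direction, and the filter 49%. For class I genes, 1 was higher with library size alone, without the 10 most abundant genes and after that filter, beside 19%, 21.1% and 49% of genes in either direction. The log2 fold change changed sign for genes near 0. Psmb7 was -0.021 with library size alone. Psmb9 was -0.033 with upper-quartile factors, -0.080 with library size alone and -0.030 without the 10 most abundant genes. Psme1 was -0.050 after the filter on mean CPM, which also refits the scaling. Leaving out a pool or a day gave -0.085 to 0.18 for Psmb7, -0.35 to 0.0043 for Psmb8, -0.10 to 0.15 for Psmb9 and -0.29 to 0.017 for Psmb10. Of 276 values for 15 named members over the alternatives, 230 kept both direction and side of the threshold. Most of these are members without a call that stayed without one, so the count does not measure how stable the calls are. The 12 values that lost a call all belong to Psmb3 and Psmd13, the members called with genotype alone. Over the 9 fits without a pool or a day, Psmb3 kept its call in 5 and Psmd13 in 3. The median log2 fold change of all genes was -0.04 with TMM, -0.09 with upper-quartile factors, -0.13 with library size alone and -0.09 without the 10 most abundant genes. The cause was not tested. Counts were low for Psmb3 (17 to 66 per library) and Psmg3 (10 to 17).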
